A study of Mus musculus with 26 samples.

Results

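The genes described here are 10 of the 55416 genes in the count tables of a study of circadian gene expression in the mouse choroid plexus (ChP). They were chosen by symbol as receptors of hormones and cytokines that signal through Janus kinases (JAK) and signal transducers and activators of transcription (STAT), together with the feedback genes of that pathway. The rule used no measured value, but the list was drawn up with earlier results of these data known. The receptors were Prlr, Ghr, Lepr, Cntfr, Osmr and Il6st, the transducer was Stat3, and the feedback genes were Cish, Socs2 and Socs3. Each of the 10 symbols matched a single row of both count tables.

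RNA was sequenced from the ChP of the 4th ventricle, which in all groups came from adult male mice. Ctrl mice were C57Bl6J animals with sham surgery, and SCNx mice were C57Bl6J animals whose suprachiasmatic nuclei (SCN), the central circadian clock, had been lesioned. Both groups were killed in constant darkness every 4 h from circadian time (CT) 0 to CT44, with 1 mouse per group and time, so that each group had 12 libraries and each time of day was sampled in 2 consecutive cycles. KO mice were FoxJ1-ERT2-Cre+/-; Bmal1fl/fl animals given tamoxifen in the diet and kept in a light/dark cycle, and 1 was killed at zeitgeber time (ZT) 7, in the light, and 1 at ZT18, in the dark. The Foxj1 promoter drives Cre in cells with motile cilia, which include ChP epithelial and ependymal cells, so that other cells of the tissue kept Bmal1. The KO samples were cut by laser capture from frozen brains and sequenced with another library kit, and Cre-negative animals of that line were not analysed here. KO levels were therefore not compared with those of the other groups.

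ChP is the secretory epithelium of the brain ventricles, which makes cerebrospinal fluid and forms the barrier between blood and that fluid. Its epithelial cells carry receptors for circulating hormones such as prolactin and leptin, and these receptors are single-span membrane proteins without kinase activity of their own. Binding of the ligand activates JAK proteins held at the receptor, which phosphorylate STAT proteins that then enter the nucleus. Among the genes that STAT proteins switch on are those of the CIS/SOCS family, whose products bind the receptor or the kinase and dampen the signal. Their RNA is often read as a trace of recent signalling, but RNA was the only quantity measured here, and neither phosphorylation nor hormone level was recorded.

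Ctrl libraries held 38751201 to 47335258 estimated counts, SCNx libraries 41807043 to 49527655, and the KO libraries 17425207 and 18059227. ChP epithelial markers, with Ttr at 55567 to 94654 CPM (counts scaled to a common library size) over the Ctrl and SCNx libraries, were abundant in every library. A few libraries stood apart. The summed level of 12 hepatocyte markers was 2565 CPM in Ctrl at CT16 and 11998 CPM in SCNx at CT0, against at most 36.2 CPM in the other Ctrl and SCNx libraries. The summed level of 5 astrocyte markers was 726 CPM in Ctrl at CT4 and 849 CPM in SCNx at CT32, against at most 111 CPM in the others, and 12 neuronal markers stood at 336 and 325 CPM in the same libraries. Rhythm calls that rest on these libraries are given with and without them. For levels, ranges are given over alternative settings that include fits without them. In KO the astrocyte sum was 827 and 877 CPM, and Arntl (Bmal1) stood at 11.1 and 8.98 CPM. Counts of the whole gene can include transcript outside the deleted part and RNA of cells without Cre, so these values do not check the deletion.

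All 10 genes had a mean of at least 1 CPM in both groups and entered the tests on 13697 genes. Their counts in single Ctrl and SCNx libraries ran from 187 for Socs3 to 52545 for Prlr. Levels of different genes were compared only after division by the length of their merged exons, and on that scale Prlr, the prolactin receptor, was the highest, with a median of 59.3 CPM per kb in Ctrl. Il6st, which encodes the shared signalling subunit gp130, followed at 23.5 and Lepr, the leptin receptor, at 19.3 CPM per kb, and the ranges of these 2 genes overlapped. Ghr (growth hormone receptor), Cntfr (ciliary neurotrophic factor receptor), Stat3 and Cish formed a group with overlapping ranges and medians from 5.62 to 6.89 CPM per kb. Socs3 at 2.01 and Socs2 at 1.64 CPM per kb also overlapped. Osmr, the subunit that pairs with gp130 to bind oncostatin M, was the lowest at 0.79 CPM per kb, and in Ctrl its highest library (1.11) lay below the lowest library of Socs2 (1.15). The order of the medians in SCNx differed only within the group of 4 genes, where Cntfr (7.89) stood above Ghr (6.79), Stat3 (6.51) and Cish (5.34). The merged length counts every annotated exon, whether or not it was used in this tissue, and ran from 2782 bases for Cntfr to 15339 bases for Prlr. The order of the genes depends on these lengths.

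**Figure D1:**
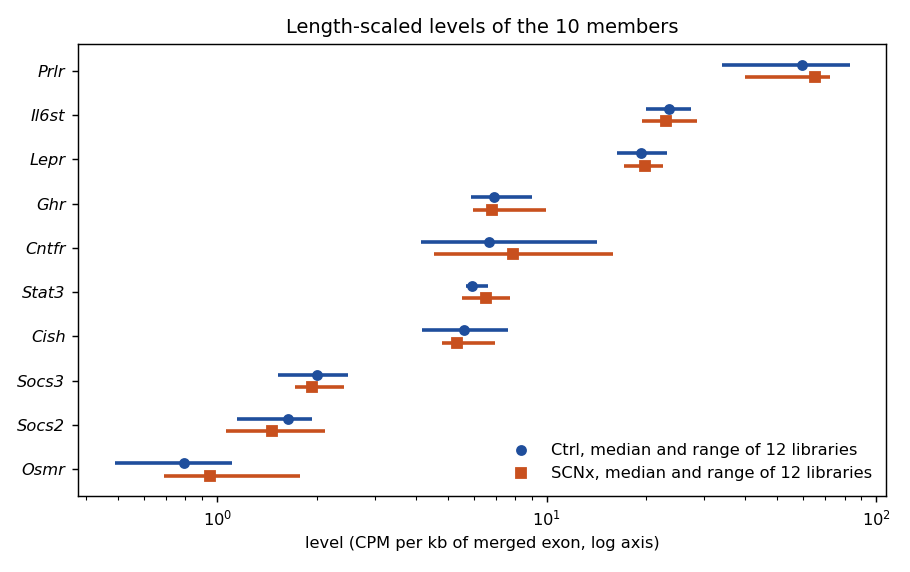
Length-scaled levels (CPM per kb of merged exon, log axis) of the 10 genes in Ctrl and SCNx. Points are medians and bars run from the lowest to the highest of 12 libraries per group; Prlr lies highest at 59.3 and Osmr lowest at 0.79 CPM per kb in Ctrl.

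In Ctrl a 24 h rhythm was found in 4 of the 10 genes, Prlr, Ghr, Cntfr and Cish, where edgeR's quasi-likelihood test of a 24 h cosine and sine gave adjusted p-values under 0.05. The background of that call was 10.7% of the 13697 genes tested. The paper already names Cntfr, Ghr and Cish as rhythmic in these Ctrl mice, and the list was drawn up with earlier results known. The share of members called is therefore not a test of the set. Prlr stood highest in the subjective day, whereas Cntfr, Ghr and Cish stood highest in the subjective night. In SCNx no member was called by edgeR, but neither was any other gene (0% of 13697), and 1 member, Ghr, had an unadjusted p under 0.05 there against 14.8% of the genes tested. DESeq2 called no member in SCNx either, and 432 of all genes. The median amplitude of the 10 genes, which is how far the fitted log2 curve rises above its mean, was 0.193 in Ctrl and 0.126 in SCNx, beside 0.110 and 0.0913 over all genes tested.

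Prlr (ENSMUSG00000005268) had its RNA between 522 CPM (CT40) and 1271 CPM (CT0) in Ctrl, with a median of 910 CPM. The libraries from CT0, CT4 and CT8 and from CT24, CT28 and CT32 held 1006 to 1271 CPM, and those from CT12, CT16 and CT20 and from CT36, CT40 and CT44 held 522 to 815 CPM. The day and night libraries of Ctrl thus did not overlap for Prlr in either cycle, which was the case with night lower for 0.84% of the genes tested. The fitted curve peaked at CT3.51 ± 0.754 h (SE) with a log2 amplitude of 0.44 ± 0.088, a 1.84-fold difference between peak and trough (adjusted p = 0.0108, edgeR). Prlr itself is among the markers of ChP epithelium, and in bulk tissue fewer cells of a type and less RNA per cell cannot be told apart. The sum of the 10 epithelial markers, which Prlr belongs to, varied between 92493 and 106274 CPM in Ctrl, and its lowest value fell at CT4, a time of high Prlr. That library was also the one with astrocyte and neuronal markers. Most of the sum was Ttr (Ctrl medians of 89949 CPM for Ttr and 101523 CPM for the sum), so it says little about the share of epithelial cells. The part of that share in the Prlr values was not tested.

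In SCNx the Prlr range was 612 CPM (CT8) to 1109 CPM (CT4) with a median of 998 CPM, within the Ctrl span. The 4 lowest SCNx libraries were those at CT8, CT32, CT36 and CT0, with 612, 709, 765 and 798 CPM, and the other 8 lay between 940 and 1109 CPM. Day and night libraries overlapped, as they did in SCNx for all 10 genes, where 0.314% of the genes tested had night above day without overlap and 0.336% below. Of the 4 low libraries, 3 came from times at which Ctrl Prlr was high. The epithelial marker sum was lowest of SCNx at CT32 (63902 CPM, against 89508 CPM or more in the others), and its part in the Prlr value there was not tested. The SCNx curve had an amplitude of 0.21 ± 0.103 (adjusted p = 0.415), and the curve of the difference between the groups had an amplitude of 0.53, which missed the threshold (adjusted p = 0.0679, edgeR). Without the liver-rich libraries Ctrl CT16 and SCNx CT0 that difference passed the threshold (amplitude 0.60, adjusted p = 0.0391), as it did with DESeq2 (adjusted p = 0.00775). The call of a different Prlr curve after the lesion thus depended on the setting, while the Ctrl rhythm passed in every alternative run (adjusted p 0.000276 to 0.0497).

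**Figure D2:**
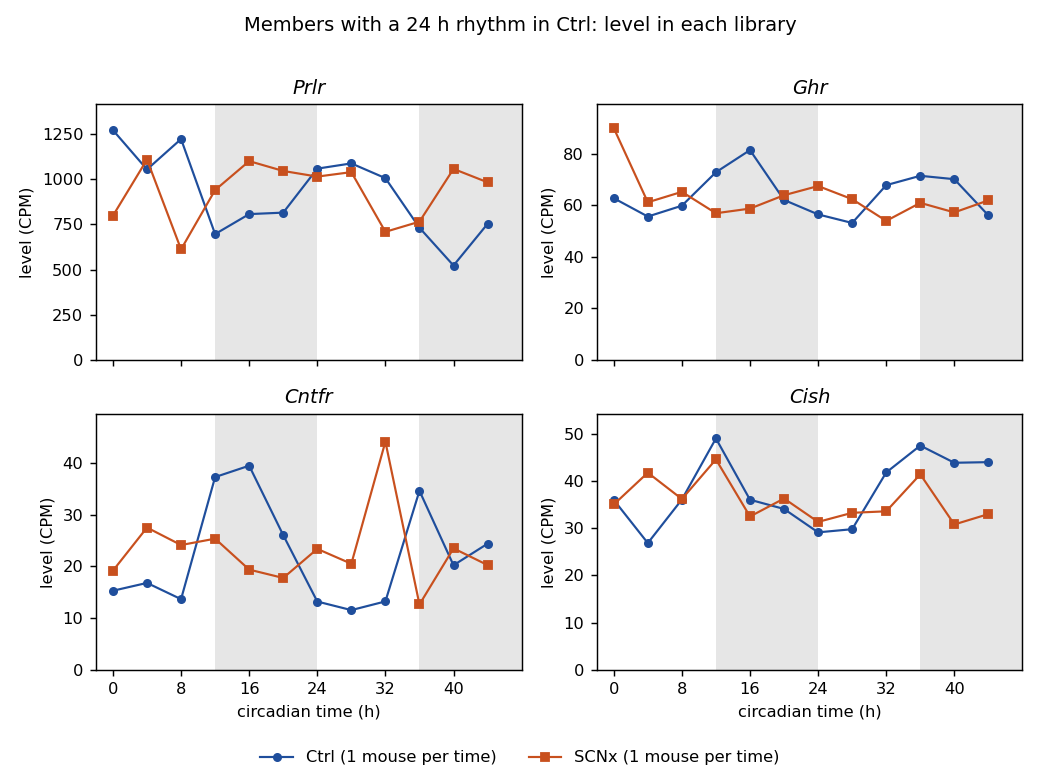
Level (CPM) against circadian time (h) for Prlr, Ghr, Cntfr and Cish, with 1 mouse per point, Ctrl as circles, SCNx as squares and the subjective night shaded. In Ctrl, Prlr falls from 1006 to 1271 CPM by day to 522 to 815 CPM by night and Cntfr rises from 11.5 to 16.8 CPM by day to 20.2 to 39.5 CPM by night, and in SCNx day and night values overlap for all 4 genes.

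Cntfr (ENSMUSG00000028444) had the widest rhythm of the 10 genes. It encodes the subunit that binds ciliary neurotrophic factor and recruits gp130 and the LIF receptor. In Ctrl its RNA ran from 11.5 CPM (CT28) to 39.5 CPM (CT16) with a median of 18.5 CPM. Day libraries held 11.5 to 16.8 CPM and night libraries 20.2 to 39.5 CPM, again without overlap in either cycle, a pattern that 0.504% of the genes tested had with night higher. The values were highest at CT12, CT16 and CT36 (37.3, 39.5 and 34.6 CPM), at the start of the subjective night. The fit gave a peak at CT15.2 ± 0.825 h and a log2 amplitude of 0.75 ± 0.156, a 2.81-fold difference between peak and trough (adjusted p = 0.00825, edgeR).

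In SCNx, Cntfr ran from 12.6 CPM (CT36) to 44.1 CPM (CT32) with a median of 21.9 CPM. Its lowest SCNx value thus fell at a time when Ctrl was high, and its highest at a time when Ctrl was low. The SCNx library at CT32, however, was that with the astrocyte and neuronal markers, and the part of those cells in the Cntfr value was not tested. The other 11 SCNx libraries held 12.6 to 27.5 CPM. The SCNx amplitude was 0.31 ± 0.171 (adjusted p = 0.449) and 0.13 without Ctrl CT4 and SCNx CT32 (adjusted p = 0.802).

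The 24 h curves of the groups differed for 2 of the 10 genes, Cntfr and Ghr, against a background of 2.12% of the genes tested. At an unadjusted p under 0.05 there were 5, with Prlr, Cish and Socs3 added, against 15.1%. For Cntfr the difference curve had an amplitude of 0.96 (adjusted p = 0.0497, edgeR), just inside the threshold. It lost the call in 18 of 24 fits that left out a single library (adjusted p 0.0609 to 0.110 in those 18: Ctrl CT0, CT8, CT12, CT16, CT20, CT24, CT28, CT32, CT36 and CT44, and SCNx CT0, CT4, CT12, CT16, CT20, CT24, CT40 and CT44), with limma-trend (adjusted p = 0.0615) and without the liver-rich libraries (adjusted p = 0.110), but held without the brain-rich libraries (adjusted p = 0.0163) and without all 4 (adjusted p = 0.0285). The amplitude of the difference stayed between 0.87 and 1.09 in these fits, which included DESeq2 (adjusted p = 0.00321).

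Ghr (ENSMUSG00000055737) had a shallow night peak in Ctrl. Its RNA ran from 53.1 CPM (CT28) to 81.4 CPM (CT16) with a median of 62.4 CPM, and day libraries (53.1 to 67.8 CPM) overlapped night libraries (56.0 to 81.4 CPM). Values at CT12, CT16, CT36 and CT40, from 70.1 to 81.4 CPM, were above all others. The curve peaked at CT14.0 ± 0.813 h with an amplitude of 0.22 ± 0.046 (adjusted p = 0.0310, edgeR). The highest library, Ctrl at CT16, was liver-rich, and Ghr is abundant in liver. The call held without it and SCNx CT0 (amplitude 0.18, adjusted p = 0.0103), but was lost in 6 of the 24 fits that left out a single library (Ctrl CT4, CT12, CT16, CT24, CT28 and CT36, adjusted p 0.0577 to 0.0853).

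In SCNx, Ghr ran from 53.9 CPM (CT32) to 89.9 CPM (CT0) with a median of 61.5 CPM. The CT0 library stood above the rest, which held 53.9 to 67.4 CPM, and it was also the one with the highest hepatocyte sum. With that library the SCNx curve had an amplitude of 0.17 ± 0.064 and an unadjusted p of 0.0160 (adjusted p = 0.224), and without it and Ctrl CT16 the amplitude was 0.08 (adjusted p = 0.419). The difference between the groups had an amplitude of 0.38 (adjusted p = 0.0272), which became 0.26 without these libraries and kept its call (adjusted p = 0.0408). Leaving out Ctrl CT12, CT24 or CT36 or SCNx CT12 or CT16 ended the call, with adjusted p from 0.0502 to 0.0589. Of the 12 hepatocyte markers, 6 (Fgb, Fga, Fgg, Orm1, Pzp and Cps1) had a median under 0.05 CPM over the Ctrl and SCNx libraries.

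Lepr, the leptin receptor, had a Ctrl curve that missed the call. Its RNA ran from 115 to 163 CPM in Ctrl (median 136) and from 121 to 159 CPM in SCNx (median 140). The Ctrl values at CT0, CT8 and CT32 were the highest (153 to 163 CPM), but day and night overlapped, and the amplitude of 0.12 ± 0.052 was not called (adjusted p = 0.269, edgeR). It was called (amplitude 0.17, adjusted p = 0.0116) when all 4 libraries with liver or brain transcripts were left out. Leprot, which shares the first part of the Lepr locus but encodes another protein, had 36.2 to 41.1 CPM in Ctrl and an amplitude of 0.06 (adjusted p = 0.643).

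Il6st varied little, from 223 to 304 CPM in Ctrl (median 261) and from 216 to 316 CPM in SCNx (median 256), and its amplitude in Ctrl was 0.04 ± 0.045. Its highest libraries were the liver-rich Ctrl CT16 and the brain-rich SCNx CT32. Osmr, at 5.92 to 13.5 CPM in Ctrl (median 9.63), peaked in the same Ctrl library at CT16, and its amplitude of 0.17 ± 0.127 became 0.08 without the liver-rich libraries. Neither gene was called for a rhythm in any alternative.

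Stat3, which carries the signal of gp130 receptors and of the leptin receptor to the nucleus, had the smallest amplitude of the set in Ctrl. Its Ctrl levels ran from 54.3 to 63.1 CPM (median 56.3), and the amplitude of 0.01 ± 0.029 gave it an adjusted p of 0.976. In SCNx its amplitude was 0.09 ± 0.045 (adjusted p = 0.375), above those of Lepr, Socs3 and Il6st.

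Cish (ENSMUSG00000032578), which encodes the SH2 protein CIS and is a classical target of STAT5 downstream of prolactin and growth hormone, was the only one of the 3 feedback genes with a rhythm called in Ctrl. Its RNA ran from 26.9 CPM (CT4) to 49.0 CPM (CT12) with a median of 36.1 CPM. The highest values were at CT12, CT36, CT44 and CT40 (43.9 to 49.0 CPM) and the lowest at CT4, CT24 and CT28 (26.9 to 29.8 CPM), and day (26.9 to 41.8 CPM) overlapped night (34.1 to 49.0 CPM). The curve peaked at CT13.9 ± 0.963 h with an amplitude of 0.31 ± 0.078, a 1.53-fold difference between peak and trough (adjusted p = 0.0191, edgeR). Leaving out Ctrl CT4, CT12, CT24 or CT36 took the adjusted p to between 0.0505 and 0.0614. Of these, CT4, the lowest, was brain-rich. The call was kept in all 10 alternative settings, which included fits without the brain-rich and liver-rich libraries (adjusted p 0.00254 to 0.0420).

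In SCNx, Cish ran from 30.8 to 44.6 CPM (median 34.3), with CT12, CT4 and CT36 highest and day and night overlapping. The amplitude was 0.12 ± 0.069 (adjusted p = 0.573), and the difference curve of 0.28 was not called (unadjusted p = 0.0351, adjusted p = 0.292). The test of the difference thus did not show that the Cish curves of the groups differed. The Prlr peak at CT3.51 and the Cish peak at CT13.9 in Ctrl lay in opposite parts of the cycle, with Ghr (CT14.0) near Cish.

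Socs3, the feedback inhibitor of gp130 and leptin receptor signalling, ran from 4.42 CPM (CT4) to 7.23 CPM (CT44) in Ctrl (median 5.80), with day at 4.42 to 5.83 CPM and night at 5.34 to 7.23 CPM. The curve peaked at CT16.1 with an amplitude of 0.22 ± 0.075 and missed the call (unadjusted p = 0.0168, adjusted p = 0.103). It was the fifth member with an unadjusted p under 0.05 in Ctrl, against 24.8% of the genes tested. In SCNx the range was 4.99 to 6.99 CPM and the amplitude 0.08 ± 0.057. Socs2, which restrains growth hormone receptor signalling, had 10.97 to 18.4 CPM in Ctrl and 10.1 to 20.2 CPM in SCNx, and amplitudes of 0.12 ± 0.082 and 0.14 ± 0.107 that were not called.

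STAT proteins bind the palindrome TTCNNNGAA, and the RefSeq windows from 250 bases before to 50 bases after each annotated start were searched for it (GRCm38.p6, a different build from that of the counts, used here only for the letters). Windows were found for 9 of the 10 genes, 18 windows in all, and Socs2 had none. Some genes had several starts, and Cntfr had 6 windows, some overlapping, so the 18 windows are not separate promoters. The palindrome was in 3 of these windows, those of Cish, of Socs3 and of 1 of the 3 starts of Prlr, while 8.30% of 32851 mouse windows held it. Counted by gene, it was in 3 of the 9 members and in 2582 of 27025 mouse genes. Cish held it 2 times, at 1 and 12 bases from the start, which 0.457% of windows did 2 or more times. These 3 windows are shown because they belong to the feedback arm and to the receptor with the highest level, with the palindrome in capitals:
Cish (chr9:107296409-107296708, plus strand): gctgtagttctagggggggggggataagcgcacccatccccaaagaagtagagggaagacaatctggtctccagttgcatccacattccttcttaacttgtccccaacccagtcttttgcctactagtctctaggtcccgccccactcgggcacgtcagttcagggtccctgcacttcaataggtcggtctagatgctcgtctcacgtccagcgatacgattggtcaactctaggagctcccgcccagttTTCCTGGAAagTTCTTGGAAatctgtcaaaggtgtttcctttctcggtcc
Socs3 (chr11:117969317-117969616, minus strand): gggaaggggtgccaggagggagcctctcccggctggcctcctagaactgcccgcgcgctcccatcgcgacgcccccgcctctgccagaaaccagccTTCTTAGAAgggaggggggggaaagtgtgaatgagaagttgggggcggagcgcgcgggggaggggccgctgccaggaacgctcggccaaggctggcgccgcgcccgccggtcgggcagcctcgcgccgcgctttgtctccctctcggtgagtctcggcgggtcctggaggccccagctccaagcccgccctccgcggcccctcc
Prlr (chr15:10223656-10223955, plus strand): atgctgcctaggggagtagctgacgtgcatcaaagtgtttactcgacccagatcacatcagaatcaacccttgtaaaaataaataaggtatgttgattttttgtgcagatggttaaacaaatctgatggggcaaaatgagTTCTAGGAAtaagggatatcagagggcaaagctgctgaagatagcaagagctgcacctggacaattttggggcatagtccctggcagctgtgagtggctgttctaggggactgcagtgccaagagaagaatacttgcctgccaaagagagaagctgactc
The clock motifs CACGTG, the E-box, and TTATGNAA, the D-box, were searched on both strands in the same windows. The E-box was in none of the 18 windows (7.15% of all windows), and the D-box was in 1, another start of Prlr (3.38% of all windows). A match is a run of letters only, and no binding was measured.

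**Figure D3:**
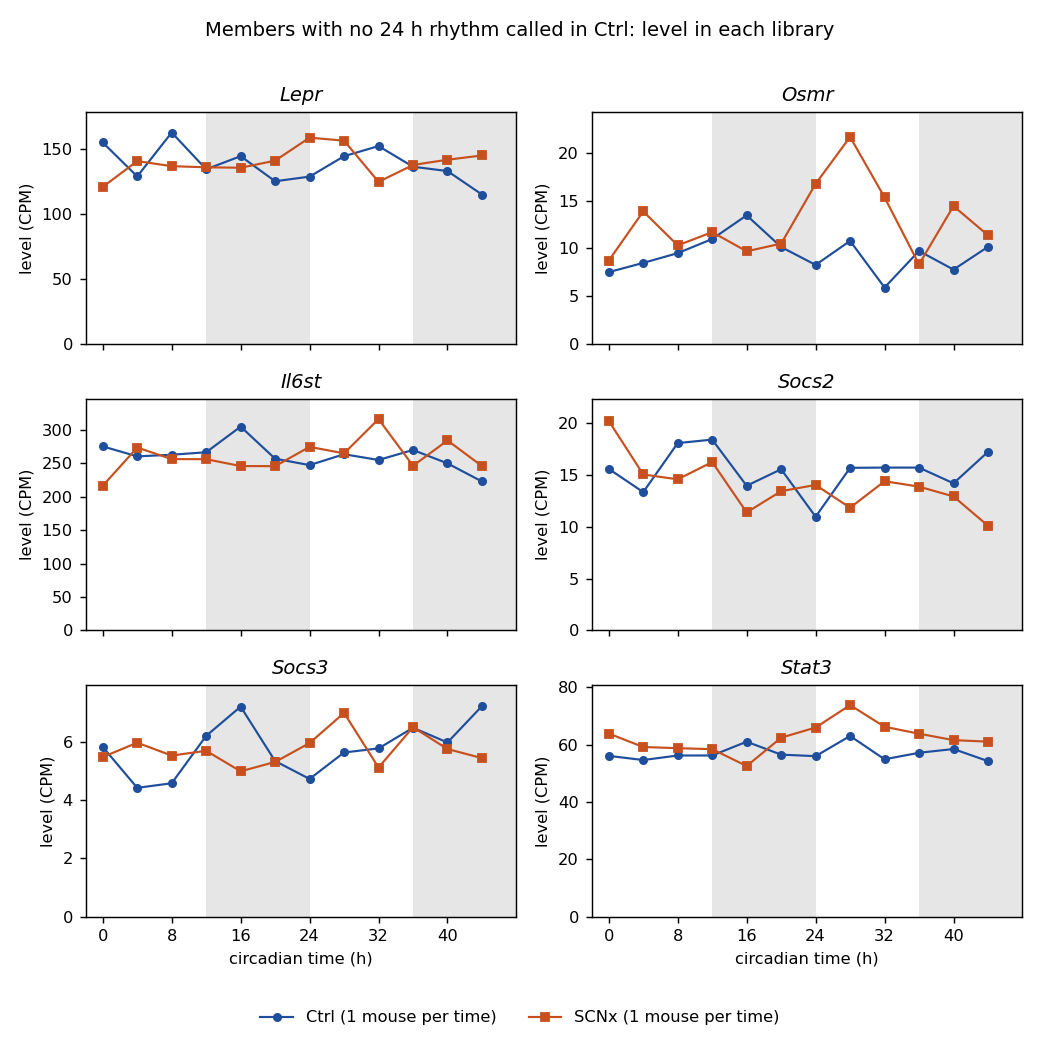
Level (CPM) against circadian time (h) for the 6 genes without a rhythm called in Ctrl, with 1 mouse per point, Ctrl as circles, SCNx as squares and the subjective night shaded. Stat3 stays between 54.3 and 63.1 CPM in Ctrl, and Osmr reaches 21.7 CPM in SCNx at CT28 against a Ctrl maximum of 13.5 CPM.

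With all time points pooled, the level of no member differed between SCNx and Ctrl at an adjusted p under 0.05 or under 0.25 by edgeR, as was true of all genes tested (0% at either threshold). At an unadjusted p under 0.05 there were 2 of the 10 genes, Osmr and Stat3, against 9.37% of all genes, and both were higher in SCNx. DESeq2 called 7 genes at an adjusted p under 0.05 (0.0511%) and 193 under 0.25 (1.41%), with Osmr and Stat3 under 0.25 and no member under 0.05. Of the 10 genes 5 had a fold above and 5 a fold below that of Ctrl, and the median absolute log2 difference was 0.0413, beside 0.0557 over all genes.

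Osmr had 5.92 to 13.5 CPM in Ctrl and 8.34 to 21.7 CPM in SCNx (medians 9.63 and 11.5). The SCNx libraries at CT28, CT24, CT32, CT40 and CT4 (13.9 to 21.7 CPM) lay above the highest Ctrl library, while the other 7 fell within the Ctrl range. The level was 1.35-fold that of Ctrl (log2 0.44 ± 0.144, unadjusted p = 0.00569, adjusted p = 0.410, edgeR). DESeq2 gave it an adjusted p of 0.232. The SCNx library at CT32 was brain-rich. Over 10 alternative settings, which included fits without the liver-rich and brain-rich libraries, the log2 difference of Osmr ran from 0.39 to 0.53. The 5 SCNx libraries above the Ctrl range were also the 5 with the highest summed level of 8 mural markers in SCNx, at 335 to 412 CPM against at most 319 CPM in the other 7. Ctrl did not show this match: its highest mural sums, 450 CPM at CT28 and 421 CPM at CT8, went with 10.8 and 9.51 CPM of Osmr. The Ctrl library with the most Osmr, CT16, had a mural sum of 337 CPM. Over the groups the mural sum had a median of 314 CPM in SCNx and 251 CPM in Ctrl (ranges 195 to 412 and 177 to 450 CPM), and the sum of 6 endothelial markers a median of 221 and 170 CPM (ranges 129 to 304 and 122 to 269 CPM). The part of these cells in the Osmr level was not tested.

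Stat3 had 52.6 to 73.8 CPM in SCNx (median 62.04) beside 54.3 to 63.1 CPM in Ctrl. The SCNx libraries at CT28, CT32, CT24, CT0 and CT36 (63.9 to 73.8 CPM) lay above all Ctrl libraries and the rest overlapped them. Of those above, CT32 was brain-rich and CT0 liver-rich. The level was 1.09-fold that of Ctrl (log2 0.13 ± 0.039, unadjusted p = 0.00342, adjusted p = 0.377, edgeR). Over 10 alternative settings, which included fits without the liver-rich and brain-rich libraries, the log2 difference ran from 0.110 to 0.133. The 3 SCNx libraries with the most Stat3, CT28, CT32 and CT24, also had the 3 highest mural sums (391 to 412 CPM) and the 3 highest endothelial sums (255 to 304 CPM) of SCNx, and the part of those cells was not tested.

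For the other 8 genes the fitted log2 differences were small beside their errors. The values were 0.02 ± 0.129 for Prlr, -0.02 ± 0.076 for Ghr, 0.01 ± 0.051 for Lepr, 0.06 ± 0.215 for Cntfr and -0.00 ± 0.050 for Il6st. They were -0.08 ± 0.093 for Cish, -0.13 ± 0.092 for Socs2 and -0.01 ± 0.079 for Socs3. None of the 8 had an unadjusted p under 0.05.

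**Figure D4:**
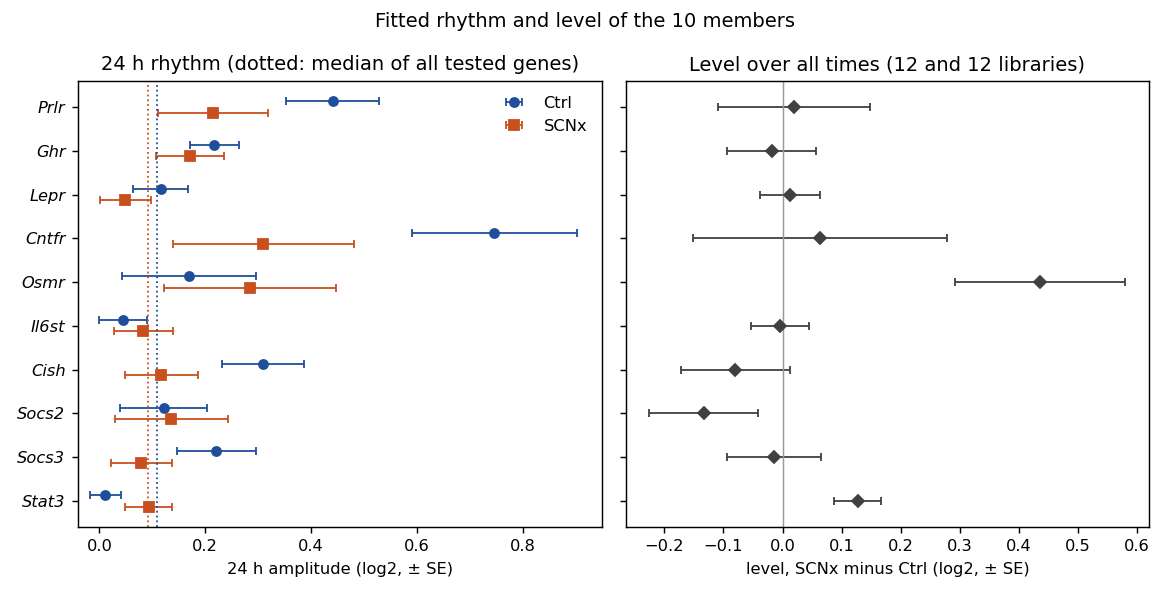
Left, amplitude of the fitted 24 h curve (log2, ± SE) of the 10 genes in Ctrl (circles) and SCNx (squares), with the median of all tested genes dotted. Right, level of SCNx minus Ctrl (log2, ± SE, 12 and 12 libraries); Cntfr (0.75) and Prlr (0.44) have the widest Ctrl curves, and Osmr has the largest level difference (0.44).

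Among the other genes of the pathway, 88 ligands, receptors, kinases, STAT, feedback and target genes were listed and 58 passed the filter on low counts. A rhythm in Ctrl was called for 6 of these 58, none was called in SCNx, and the curves of the groups differed for 2. The background was 10.7% of all genes for the first call and 2.12% for the last, so that these counts were near those of genes at large. By class, the calls in Ctrl were 0 of 3 ligands, 0 of 16 receptors, 1 of 4 kinases, 0 of 5 STAT genes, 2 of 17 feedback genes and 3 of 13 targets. The ligands of the hormone receptors were at or near zero in this tissue. Prl had at most 0.08 CPM, Lep at most 0.24 CPM and Gh at most 1.05 CPM in any Ctrl or SCNx library, with medians of 0, where 3 counts corresponded to 0.0606 to 0.0774 CPM. Of the gp130 ligands Ctf1 (cardiotrophin) had medians of 16.4 CPM in Ctrl and 15.8 CPM in SCNx, and Cntf itself stood at 0.98 and 1.07 CPM.

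Tyk2, the only kinase with a call, had 9.72 to 12.2 CPM in Ctrl and a peak at CT17.2 with an amplitude of 0.14 ± 0.027 (adjusted p = 0.0415, edgeR). In SCNx its amplitude was 0.16 ± 0.039 (adjusted p = 0.138) with a fitted peak at CT0.632, and the curves of the groups differed (amplitude 0.25, adjusted p = 0.0311). Its call in Ctrl was lost without the brain-rich libraries (adjusted p = 0.0640). Jak1 and Jak2, the kinases that serve gp130, leptin, growth hormone and prolactin receptors, had amplitudes of 0.08 ± 0.027 and 0.10 ± 0.038 that were not called. Stat5a and Stat5b, the STAT proteins most tied to Prlr and Ghr, had amplitudes of 0.07 ± 0.044 and 0.09 ± 0.036, likewise without a call. Without all 4 libraries with liver or brain transcripts Stat5b was called (Ctrl adjusted p = 0.0205, difference adjusted p = 0.0408), and so was Il6ra in Ctrl (0.0237). Jak1, Jak2, Stat5a, Stat5b and Il6ra, like Leprot, fall outside the rule for named genes and were chosen after their values were seen.

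Of the feedback genes, Sh2b3 (LNK, an adaptor that restrains JAK2) had 15.6 to 24.2 CPM in Ctrl, highest at CT12. It had a fitted peak at CT12.4 and an amplitude of 0.24 ± 0.051 (adjusted p = 0.00369, edgeR), and the paper already names it as rhythmic. Its curve differed between the groups (amplitude 0.31, adjusted p = 0.0263), a call that was lost without the liver-rich libraries (adjusted p = 0.0672). Pias3, an inhibitor of STAT3, had 30.5 to 45.3 CPM, a peak at CT9.33 and an amplitude of 0.24 ± 0.028 (adjusted p = 0.00153). Of the targets, Pim1, a kinase gene induced by STAT5 and STAT3, had 1.92 to 4.61 CPM in Ctrl and peaked at CT22.8 with an amplitude of 0.48 ± 0.087 (adjusted p = 0.0196). In SCNx its fitted peak was at CT23.2 with an amplitude of 0.32 ± 0.125 (adjusted p = 0.265, edgeR). Its curves in the groups were not called different (adjusted p = 0.782, edgeR). The other called targets, Serpina3n and Lrg1, are acute-phase genes abundant in liver. In Ctrl they were at 198 and 43.3 CPM in the liver-rich library at CT16 against medians of 0.30 and 0.51 CPM, and without the liver-rich libraries neither passed the filter on low counts.

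No pathway gene was called for its level. At an unadjusted p under 0.05 by edgeR, 6 were higher and 2 lower in SCNx, where the background was 4.78% and 4.58% of all genes. Ptprc (CD45), Il10ra and Il4ra had the smallest p, with 1.61-, 1.35- and 1.28-fold the Ctrl level (adjusted p 0.366 to 0.432). Ptprc is also among the 6 macrophage markers, whose sum ran from 37.0 to 66.6 CPM in Ctrl and from 48.9 to 76.7 CPM in SCNx; the part of those cells was not tested. In SCNx the smallest p for a rhythm were those of Tyk2, Igf1 and Jak3, with adjusted p from 0.138 to 0.258. Igf1, abundant in liver, was highest in the liver-rich SCNx library at CT0 (68.5 CPM against a median of 8.95 CPM).

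The genes with profiles most like those of the 4 called members were found from the root mean square difference of centred log2 CPM over the 24 Ctrl and SCNx libraries. Prlr was closest to Atp7a, a copper transporter (0.179, Ctrl adjusted p = 0.0598), and Nt5e, the ecto-5'-nucleotidase (0.188), against 0.362 for the median gene. Cntfr was closest to Xdh (0.306) and to Tsc22d3 (GILZ, 0.316), a gene known to be induced by glucocorticoids, against 0.555. Ghr was closest to Prodh (0.108) and Paqr9 (0.109) against 0.237, and Cish to Zfp467 (0.148) and Snw1 (0.148) against 0.279. Of these 8 genes all but Atp7a were themselves called rhythmic in Ctrl, against 10.7% of the genes tested. They were chosen for likeness to called members in the same libraries, so these calls are no separate evidence. The fitted peaks were at CT2.46 and CT2.14 for Atp7a and Nt5e, and between CT12.9 and CT14.9 for the neighbours of the other members.

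In KO, with 1 mouse at each time and no test, Prlr stood at 654 CPM at ZT7 and 469 CPM at ZT18. Cntfr went from 22.6 CPM at ZT7 to 31.7 CPM at ZT18, and Cish from 18.5 to 24.0 CPM. Prlr was thus lower in the dark library and Cntfr and Cish were higher, the direction of the Ctrl means for each. Ghr, the remaining member with a rhythm called in Ctrl, went against the direction of its Ctrl mean. With 1 mouse at each time, none of these differences can show a rhythm in KO. The night minus day difference of log2 CPM in KO was -0.48 for Prlr (interval -0.52 to -0.44), 0.49 for Cntfr (0.30 to 0.67) and 0.37 for Cish (0.17 to 0.58), where the 95% intervals cover counting error only and not the variation between mice. In Ctrl the mean of CT16, CT20, CT40 and CT44 minus that of CT4, CT8, CT28 and CT32 was -0.61 ± 0.163 for Prlr, 0.96 ± 0.232 for Cntfr and 0.24 ± 0.171 for Cish (SE, 4 and 4 libraries). In SCNx the same differences were 0.31 ± 0.212, -0.47 ± 0.252 and -0.12 ± 0.090. With only CT8 and CT32 as day, the Ctrl difference of Cish was 0.01, and in SCNx that of Prlr was 0.67 and that of Cntfr -0.70. Without SCNx CT32 the SCNx difference of Cntfr was -0.25. The Ctrl differences of Prlr (-0.69 to -0.61) and Cntfr (0.87 to 0.99) kept their direction under each alternative. Clock genes, which are not members, were read in the same KO libraries. Nr1d1 (0.68), Dbp (0.23) and Arntl (-0.30) went against their Ctrl differences (-3.98 ± 0.581, -1.60 ± 0.680 and 1.16 ± 0.946). Per2 had the direction of Ctrl (0.36 in KO and 1.49 ± 0.483 in Ctrl).

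Ghr was lower at ZT18 than at ZT7 in KO (49.6 and 59.4 CPM, log2 -0.26), where the Ctrl difference was 0.18 ± 0.139, which became 0.07 with only CT8 and CT32 as day and 0.06 without Ctrl CT4 and Ctrl CT16. Socs3 was the only member at least 1.5-fold apart in KO, with 4.03 CPM at ZT7 and 6.27 CPM at ZT18 (1.55-fold, from 67 and 118 counts), against 8.01% of 15051 genes at least 1.5-fold higher at ZT18. No member was as much lower, against 6.84% of genes. Lepr had 105 CPM at ZT7 and 84.5 CPM at ZT18, and Osmr 9.62 and 13.7 CPM. The counting intervals of the difference held 0 for Il6st (220 and 230 CPM) and Socs2 (6.62 and 7.60 CPM), and not for Stat3 (42.0 and 47.8 CPM). The astrocyte and neuronal sums in these libraries were near those of the brain-rich libraries of the other groups and differed between the times (neuronal 263 at ZT7 and 374 CPM at ZT18), and their part in these values was not tested. Lighting, dissection, kit and genotype cannot be told apart in a comparison of KO with the other groups.

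**Figure D5:**
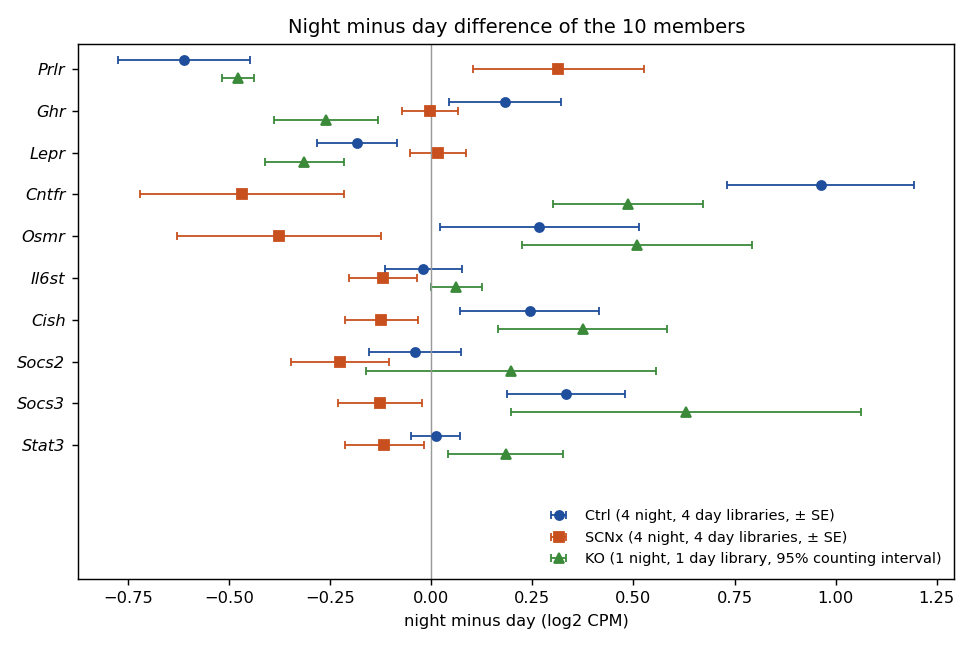
Night minus day difference (log2 CPM) of the 10 genes in Ctrl and SCNx (circles and squares, 4 night and 4 day libraries, ± SE) and in KO (triangles, 1 library each, 95% counting interval). For Prlr Ctrl and KO lie below 0 (-0.61 and -0.48) and for Cntfr above 0 (0.96 and 0.49), while SCNx lies on the other side of 0 in both.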

How the data were processed

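The authors deposited gene-level estimated counts (Salmon expected counts, not whole numbers) made with nf-core/rnaseq on GRCm39 and Ensembl annotation; the submitters' processing notes also list STAR, with Salmon 1.9.0. The strand setting of the counting is not given in the sources used here. Counts were rounded to whole numbers, CPM were scaled by TMM, and 13697 genes with a mean of at least 1 CPM in both groups were tested with edgeR 4.0.16 (quasi-likelihood, R 4.3.3). One fit over the 24 Ctrl and SCNx libraries gave each group its own mean and 24 h terms, another without the 24 h terms compared the levels, and p-values were Benjamini-Hochberg adjusted over all genes tested. The SE of amplitudes and peaks came from separate least-squares fits of log2 CPM per group, not from the fit behind the p-values. Each time had 1 mouse per group, so rhythm p-values measure the spread of these mice around the curves. Level p-values of the main fit measure their spread around the group means, with any rhythm counted in that spread. KO was not tested. Depth was 17425207 to 49527655 counts per library, and intervals cover counting error only. Simulated data were used to check the fit. Alternatives were DESeq2 1.42.0, limma-trend (limma 3.58.1), other size factors, other filters on low counts, a linear trend, separate fits, a replicate block and left-out libraries.

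The members and lists were chosen with earlier results of these data known. Named were all members, other pathway genes with an adjusted p under 0.05 for a rhythm (under 0.25 for level), otherwise the 3 with the smallest p per comparison, and the 2 nearest profiles of each called member. Day and night ranges, levels per kb of merged exon (GENCODE exons on GRCm38, used for length only) and fits without the liver-rich and brain-rich libraries were added after seeing the data. Exons of Cish overlap antisense genes and those of Stat3 overlap Stat5a on the other strand by 72 bases.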

Additional observations from a re-analysis of the deposited data

Results flagged for a closer look

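The 24 h curves of SCNx and Ctrl differed by the test of the difference itself, at an adjusted p under 0.05 by edgeR, for 4 genes of the set and its pathway. These came from the 10 members and 58 other pathway genes tested, and the background was 2.12% of all genes tested. The log2 amplitude of the difference curve was 0.96 for Cntfr, 0.38 for Ghr, 0.31 for Sh2b3 and 0.25 for Tyk2. The Cntfr and Sh2b3 calls were lost without the liver-rich libraries Ctrl CT16 and SCNx CT0 (adjusted p = 0.110 and 0.0672), and those of Ghr and Tyk2 were kept (adjusted p = 0.0408 and 0.0340). Of the 24 fits that left out 1 library, 18 lost the Cntfr call and 5 the Ghr call, and limma-trend also lost that of Cntfr. No test of single outlying libraries was run on these groups of 12 libraries.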

How the results depend on the processing

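Of 1010 rhythm values of members under other settings, 967 kept their side of the threshold, 35 lost it and 8 gained it. Most of these values came from results without a call, and all 35 losses fell on called results. The Cntfr difference lost its call in 18 of 24 left-out fits and 2 of 9 other settings. The Ghr difference lost it in 5 of 24 left-out fits, and the Ctrl rhythms of Ghr and Cish in 6 and 4 of 24. The Ctrl rhythms of Prlr and Cntfr kept it throughout. Of 340 level values, 313 kept their sign and 27 small ones changed it. Members with a rhythm in Ctrl numbered 2 to 4 when 1 library was left out, against 4, and 5 without all 4 libraries with liver or brain transcripts. Members whose curves differed numbered 0 to 3 when 1 library was left out, against 2, and 1 with limma-trend. Over all genes, rhythms in Ctrl numbered 918 to 2249 when 1 library was left out, against 1459, 2223 without Ctrl CT4 and SCNx CT32 and 2901 without all 4. In SCNx they numbered 0 to 6 when 1 library was left out, 432 with DESeq2 and 1384 with no filter on low counts. Differences numbered 163 to 466 when 1 library was left out, against 291, 589 with DESeq2, 654 with no filter, 504 without Ctrl CT4 and SCNx CT32 and 640 without all 4. Level calls numbered 0 to 3 when 1 library was left out and 7 with DESeq2. The cause of these shifts was not tested.

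The log2 level difference changed sign for Cntfr without Ctrl CT4 and SCNx CT32 (-0.0968), and for Il6st and Socs3 without Ctrl CT16 and SCNx CT0 (0.0398 and 0.0245) and without all 4 (0.0129 and 0.00913). When 1 library was left out it ran from -0.0387 to 0.0696 for Prlr, -0.0753 to 0.0174 for Ghr, -0.00919 to 0.0360 for Lepr, -0.0657 to 0.17 for Cntfr, -0.0371 to 0.0180 for Il6st and -0.0474 to 0.0192 for Socs3.

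Ctrl and SCNx libraries share circadian times, but deviations correlated over 0.1 in only 5 of 12 pairs (median 0.0057), so the times were not used as pairs. With circadian time as a replicate block no level was called, and Osmr had 0.41 (adjusted p = 0.660) and Stat3 0.12 (adjusted p = 0.649).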
